A study of Mus musculus with 11 samples.

Results

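The long intergenic noncoding RNAs (lincRNAs) that mouse bone marrow-derived macrophages express were followed across 4 libraries of cells given CYR61 and 7 control libraries. The set was taken from the deposited gene count table as every gene whose biotype is lincRNA and whose mean level over the 11 libraries was at least 0.5 CPM (a gene's count relative to the library's total count, on the usual per-million-counts scale), leaving out Malat1, Neat1, Gas5 and the Snhg genes. Of 55487 gene IDs, 5629 were lincRNA records, 1708 of these had a count in any library, and 287 made up the set. Another 7 lincRNAs reached the minimum and were left out by name. The lowest members were 4930517E14Rik, Gm34643 and Gm45897 at 0.521, 0.517 and 0.514 CPM, and the highest lincRNAs below the minimum were Gm42428, Gm43062 and Gm28151 at 0.496, 0.496 and 0.492 CPM. The members were thus chosen by their mean level over all libraries, so levels are given as a description, while the rule used no difference between CYR61 and control.

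The CYR61 group was C57BL/6J bone marrow-derived macrophages exposed for 24 h to CYR61 at 0.5 µg/ml, and the control group was macrophages of the same strain and culture at 0 µg/ml. CYR61 (CCN1) is secreted into the extracellular matrix, where cells sense it through integrins. All cells came from mice of 2 to 5 months, were differentiated for 5 to 6 days in 10% CMG-conditioned media and were then held in 2%. Total RNA was depleted of ribosomal RNA and copied from random primers. Such libraries also contain RNA without a poly(A) tail and unspliced RNA. Nothing in the labels ties a library to an animal or culture of its own, so the replicate spread behind each p-value may be technical. They do not say whether strand was kept. It is therefore not known whether reads of a lincRNA and of a gene overlapping it on the other strand were told apart.

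A lincRNA is a long transcript that lies between protein-coding genes and has no recognised long reading frame. Most are spliced, polyadenylated and much less abundant than messenger RNAs. Described members act in the nucleus on the chromatin or transcription of neighbouring genes, in the cytoplasm as binding partners of proteins or microRNAs, or as hosts from which microRNAs are cut, and the majority have no described role. In macrophages, several lincRNAs are induced by inflammatory signals.

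The 11 libraries held 17390294 to 20760369 estimated counts in CYR61 and 14912152 to 21047692 in control. The summed level of 7 macrophage markers was 24569 to 26788 CPM in CYR61 and 22208 to 23596 CPM in control, and 5 of the 7 were called different by the test described below. Markers of B cells, T and NK cells, mast cells, red cells and stroma each summed to at most 1.58 CPM in any library, and the dendritic cell and endothelial markers to at most 2.08 and 6.58 CPM. The 3 monocyte markers summed to 49.6 to 60.3 CPM in CYR61 and 42.2 to 46.9 CPM in control, without overlap, and 2 of them were called. The 4 osteoclast markers summed to 28.5 to 33.7 CPM in CYR61 and 23.9 to 30.003 CPM in control, and 1 was called. The 7 neutrophil markers summed to 1.66 to 2.02 CPM in CYR61 and 0.687 to 1.34 CPM in control, without overlap, nearly all of it S100a8. Only 1 of these 7 had enough counts to be tested, and it was called. Of these markers 5 stayed under 5 counts in every library, and Ly6g was at 0 in all. The part of these markers' cells in the differences of lincRNAs was not tested. Ribosomal RNA genes took 2.41% of counts in CYR61 replicate 4, against 0.246 to 0.562% in the other CYR61 libraries and 0.255 to 0.797% in control.

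The 287 lincRNAs together made up 0.185% of all counts, with a summed mean of 1852 CPM, and a few of them held most of it. The 10 highest held 59.4% of the summed level, 4 members reached 100 CPM, 20 reached 10 CPM and 77 lay under 1 CPM. The median member stood at 1.64 CPM. The members of highest level were Rmrp at 306 CPM, 2900097C17Rik at 280 CPM, AU020206 at 113 CPM, Oip5os1 at 104 CPM and Gm42047 at 80.8 CPM, followed by Gm47283, Gm37494, Gm36161, Lncpint and Dubr at 70.0 to 29.4 CPM. Rmrp is the RNA component of RNase MRP, an enzyme that processes ribosomal RNA precursors. 2900097C17Rik is listed as a synonym of Norad in RefSeq, an abundant cytoplasmic RNA that binds Pumilio proteins, and Oip5os1 is Cyrano, known in mouse for directing the destruction of a microRNA.

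**Figure D1:**
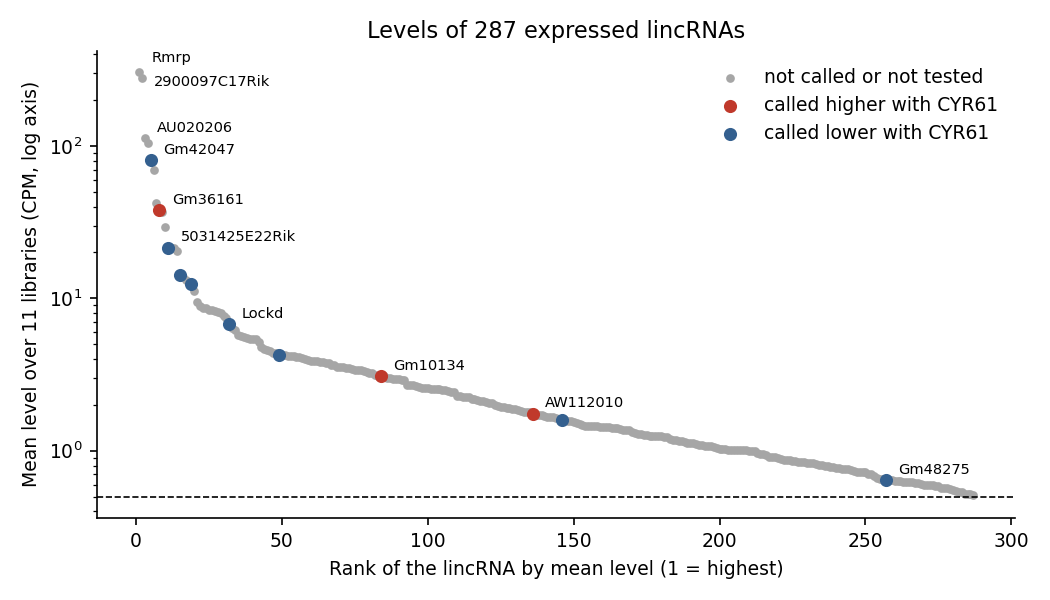
Mean level of each of the 287 lincRNAs over the 11 libraries (CPM, log axis) against its rank, with the members called higher or lower with CYR61 in colour and the 0.5 CPM minimum as a dashed line. Rmrp led at 306 CPM, the lowest member stood at 0.514 CPM, and the 11 called members stood at ranks 5 to 257, 6 of them among the 42 members of at least 5 CPM.

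Per kilobase of exon, which allows levels of different genes to be compared, Rmrp stood at 1091 CPM, Gm47283 at 62.3, 2900097C17Rik at 57.0, AU020206 at 35.5, Erdr1 at 28.3 and Gm36161 at 25.2. Exon lengths were taken from GENCODE M21 by Ensembl ID for 286 of the 287. The members had a median exonic length of 2154 bases, and 68 of them had a single exon in every transcript. The set was mostly uncharacterised: 172 members had names beginning with Gm and 82 had Riken names. GENCODE M21 gives 5 of the members as protein-coding, among them Gm10134, Gm2310 and Gm47283, which the deposited table lists as lincRNA. Members of at least 5 CPM varied by 2.28 to 25.4% among the 7 control libraries (coefficient of variation, median 8.73%), where counting error alone gives 1.34 to 10.2%. 2900097C17Rik was the steadiest at 2.28%, and the lincRNA record of Rmrp varied most. That record held 12.5 to 22.3% of Rmrp counts, depending on the library, and the rest stood on a second record.

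Estimated counts were rounded and compared over all 15135 genes with enough counts, using the quasi-likelihood test of edgeR with Benjamini-Hochberg adjustment. A gene is called when its adjusted p is under 0.05, and fold changes are CYR61 over control. All members but Gm30794 were tested. With CYR61, 3 of the 286 tested lincRNAs were called higher and 8 were called lower, so 11 members or 3.85% were called, against 7.96% of all genes tested. By direction, 1.05% of the members were called higher, against 5.33% of all genes, and 2.8% were called lower, against 2.63% of all genes. Over the whole set, the share called lower lies near that of all genes and is not a result about lincRNAs. Without adjustment for multiple testing, p was under 0.05 for 42 members, which is 14.7% against 20.4% of all genes. Of these, 11 were higher (3.85%, against 11.2% of all genes) and 31 were lower (10.8%, against 9.26% of all genes). All 4 CYR61 libraries lay above all 7 controls for 7 members (2.45%, against 4.65% of all genes) and below them for 8 members (2.8%, against 2.5% of all genes). In a bulk sample, a lower level in each cell and fewer cells with the RNA cannot be told apart.

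The tests were least precise at low levels. The standard error of a log2 fold change had a median of 0.19 over the members and 0.070 over all genes. Of the 134 tested members from 0.5 to under 1.5 CPM, 1 was called (0.746%), against 3.09% of protein-coding genes in the same range. Of 110 members from 1.5 to under 5 CPM, 4 were called (3.64%), against 4.44% of coding genes. Of 42 members at 5 CPM or more, 6 were called (14.3%), against 10.9% of coding genes. Of these 42, 5 were called lower with CYR61 (11.9%, against 3.46% of coding genes at 5 CPM or more) and 1 higher (2.38%, against 7.42%). This range has no upper limit, so levels within it were not matched. The median SE in it was 0.090 for the members and 0.050 for coding genes, which were thus tested more precisely. The shares called rest on a few members and were not tested.

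**Figure D2:**
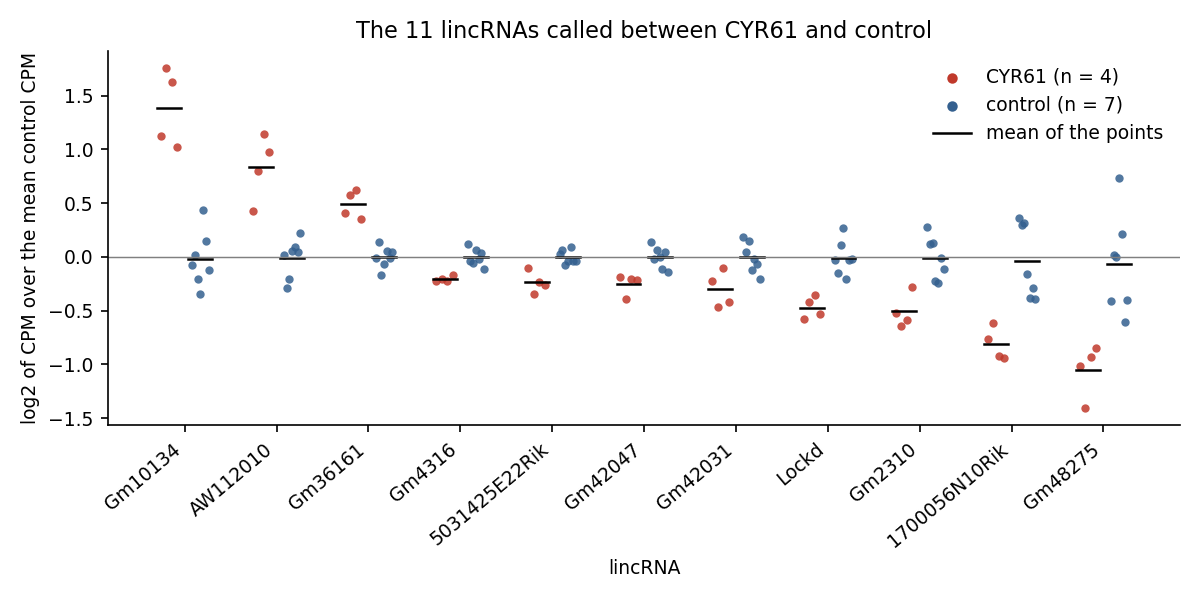
Level of the 11 called lincRNAs in each CYR61 library and each control library, as the log2 of its CPM over the mean control CPM, with the mean of the points as a bar. Gm10134, AW112010 and Gm36161 lay above 0 in all 4 CYR61 libraries, the other 8 lay below 0 in all 4, and the groups overlapped only for Gm42031.

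Gm10134, AW112010 and Gm36161 were the lincRNAs higher with CYR61, and all 3 remained called under each of the 23 other settings tried. From here on, CPM values of single genes are scaled by TMM factors, which correct library totals for differences in composition. Gm10134 had 4.21, 6.56, 5.99 and 3.93 CPM in the 4 CYR61 libraries, against 1.52 to 2.63 CPM in control with a median of 1.84. Each CYR61 library exceeded every control. Its mean was 5.17 ± 1.30 CPM in CYR61 (SD, n = 4) and 1.94 ± 0.362 CPM in control (SD, n = 7), 2.66-fold higher (log2 fold change 1.41, SE 0.17, edgeR adjusted p = 2.56e-05). Gm10134 is a short record of a single exon, 381 bases long.

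AW112010 has been described in mouse macrophages as an RNA induced by bacterial products and translated from a non-canonical reading frame. It had 1.83, 2.37, 2.99 and 2.67 CPM in CYR61, against 1.11 to 1.58 CPM in control with a median of 1.40. The groups did not overlap, although CYR61 replicate 1 stood close to the highest control. The means were 2.47 ± 0.495 CPM in CYR61 (SD, n = 4) and 1.36 ± 0.163 CPM in control (SD, n = 7), a log2 fold change of 0.85 (SE 0.16, edgeR adjusted p = 0.00263). The start region of AW112010 is shown because its change was among the largest and it is the best known of the called members. The window runs from 250 bases before to 50 bases after the start, as RefSeq gives it for GRCm38.p6, at chr19:11050517-11050816 on the minus strand. It is printed 5′ to 3′ with the matches on either strand to a kappa B pattern, GGG and CC with any 5 bases between them, in capitals.
AW112010: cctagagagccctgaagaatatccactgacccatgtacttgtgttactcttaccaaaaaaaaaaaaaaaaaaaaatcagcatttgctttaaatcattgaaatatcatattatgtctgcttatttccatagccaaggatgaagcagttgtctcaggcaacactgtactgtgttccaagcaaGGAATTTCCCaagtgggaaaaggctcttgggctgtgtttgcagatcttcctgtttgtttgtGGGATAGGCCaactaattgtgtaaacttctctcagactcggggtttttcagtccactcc
The 2 matches begin 70 and 9 bases before the start. The pattern is loose, and 50.8% of all 32851 RefSeq windows of this length hold it, so a match is a description and not a site.

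Gm36161 was the most abundant of the 3. It had 44.0, 49.3, 51.0 and 42.2 CPM in CYR61, against 29.5 to 36.4 CPM in control with a median of 32.9. All CYR61 libraries lay above all controls. The means were 46.6 ± 4.197 CPM in CYR61 (SD, n = 4) and 33.1 ± 2.19 CPM in control (SD, n = 7), a log2 fold change of 0.49 (SE 0.06, edgeR adjusted p = 2.40e-05). Its counts were fractional in all 11 libraries. It shares 167 bases at 100% identity with Gm21370, a processed pseudogene, so reads could be split between them. Gm21370 had 20.5 ± 1.77 CPM in CYR61 (SD, n = 4) and 14.3 ± 0.840 CPM in control (SD, n = 7), with a log2 fold change of 0.52 (edgeR adjusted p = 3.31e-05). Their summed level was 61.5 to 70.7 CPM in CYR61 and 44.3 to 51.0 CPM in control, without overlap. The start window of Gm36161, at chr13:120010092-120010391 on the plus strand (RefSeq, GRCm38.p6), is the only one of the 6 windows found for called members with a match to a pattern of interferon response elements, GAAA and GAAA with any 2 bases between them, shown in capitals.
Gm36161: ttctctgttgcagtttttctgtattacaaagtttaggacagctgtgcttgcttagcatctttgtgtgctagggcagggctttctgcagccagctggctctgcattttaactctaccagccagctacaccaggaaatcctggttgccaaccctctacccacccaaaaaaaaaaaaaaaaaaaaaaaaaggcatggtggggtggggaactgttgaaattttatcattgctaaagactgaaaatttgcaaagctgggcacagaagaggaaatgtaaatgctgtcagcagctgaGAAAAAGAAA
The match begins 40 bases past the start. The pattern was in 3.44% of all windows, and in 8 of the 152 windows of members (5.26%).

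The 8 members lower with CYR61 were Gm42047, Lockd, 5031425E22Rik, Gm2310, 1700056N10Rik, Gm42031, Gm4316 and Gm48275. Gm42047 and Lockd remained called under every setting tried, and the other 6 did not. Gm42047 had 75.1, 65.3, 74.1 and 73.6 CPM in CYR61, against 77.9 to 94.6 CPM in control with a median of 85.7. The groups did not overlap. The log2 fold change was -0.25 (SE 0.05, edgeR adjusted p = 0.00388). Gm42047 overlaps the span of a coding gene in GENCODE M21. It had fractional counts in all libraries and shares near-identical sequence with the lincRNAs Gm47761, Gm47939, Gm43549, Gm48362 and Gm46349. The sum over these 6 records was 80.9 ± 5.15 CPM in CYR61 (SD, n = 4) and 96.2 ± 7.04 CPM in control (SD, n = 7). In the sum, every CYR61 library, at 73.4 to 85.3 CPM, lay below every control, at 87.0 to 107.7 CPM. Gm42047 itself made up 72.1 and 85.7 CPM of these means, so the sum largely repeats its own values. Of the partners, Gm47761, Gm47939 and Gm43549 had log2 fold changes of -0.35, -0.24 and 0.28, and none was called. Gm48362 and Gm46349, not tested, had 0.60 and 0.089 CPM in CYR61 and 0.29 and 0.089 CPM in control.

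Lockd is a lincRNA transcribed downstream of Cdkn1b, which encodes the cell cycle inhibitor p27, and in mouse erythroid cells its promoter is known as an enhancer of Cdkn1b. It had 5.05, 5.62, 5.87 and 5.19 CPM in CYR61, against 6.54 to 9.04 CPM in control with a median of 7.39. The groups did not overlap, and the means were 5.43 ± 0.382 CPM in CYR61 (SD, n = 4) and 7.52 ± 0.845 CPM in control (SD, n = 7). The log2 fold change was -0.47 (SE 0.10, edgeR adjusted p = 0.00466). Lockd had fractional counts in 8 libraries and shares near-identical sequence with 13 other genes, over up to 42.8% of a transcript. Among those with the longest shared stretches, Sec14l1 and Sdhaf2 were not called, and Gm44238, Mapk12 and Gm24303 were not tested. Values of the remaining partners were not looked up. The part of split reads in the difference was not tested. The start window of Lockd, at chr6:134928842-134929141 on the plus strand (RefSeq, GRCm38.p6), is shown as that of the only called member with a described role at its own locus.
Lockd: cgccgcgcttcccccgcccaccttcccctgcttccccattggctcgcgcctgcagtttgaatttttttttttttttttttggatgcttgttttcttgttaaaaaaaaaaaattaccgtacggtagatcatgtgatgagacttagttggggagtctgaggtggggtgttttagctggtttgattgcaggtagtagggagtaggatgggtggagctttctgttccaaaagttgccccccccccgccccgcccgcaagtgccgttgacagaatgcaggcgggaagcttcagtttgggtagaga
None of the 6 patterns searched, all on both strands, was found in these letters. Besides those above, the STAT pattern TTCNNNGAA was in 8.30% of all windows. The AP-1 pattern TGANTCA was in 7.81% of them. The PU.1 pattern GAGGAAG and the TATA box letters TATAAA were each in 13.6%. RefSeq windows were matched by symbol for 124 of the 287 members and for 6 of the 11 called ones.

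5031425E22Rik is a spliced lincRNA beside Kmt2e, a chromatin regulator gene on the opposite strand. It had 21.2, 17.9, 19.3 and 18.996 CPM in CYR61, against 21.7 to 24.2 CPM in control with a median of 22.2. CYR61 replicate 1 lay just under the lowest control. The log2 fold change was -0.23 (SE 0.05, edgeR adjusted p = 0.0109), and the adjusted p was 0.0651 without CYR61 replicate 2. The start window of 5031425E22Rik, at chr5:23433287-23433586 on the minus strand (RefSeq, GRCm38.p6), holds 3 matches to the kappa B pattern, of which a pair on opposite strands overlap, in capitals. It is shown beside that of AW112010, which holds the same pattern and moved the other way.
5031425E22Rik: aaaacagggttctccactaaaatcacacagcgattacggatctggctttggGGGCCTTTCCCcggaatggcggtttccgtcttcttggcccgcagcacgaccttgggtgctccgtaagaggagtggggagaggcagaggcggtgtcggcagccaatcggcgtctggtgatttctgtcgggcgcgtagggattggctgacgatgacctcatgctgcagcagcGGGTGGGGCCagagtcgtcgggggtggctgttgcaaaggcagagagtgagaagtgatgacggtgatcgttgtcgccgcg
The window of Gm42031 also held this pattern and a TATA box match, and that of Gm4316 held a STAT match.

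Gm2310 and 1700056N10Rik were lower still, at low levels. Gm2310 had 3.33, 3.06, 3.17 and 3.93 CPM in CYR61, against 4.02 to 5.78 CPM in control with a median of 4.72, a log2 fold change of -0.50 (SE 0.12, edgeR adjusted p = 0.0165). The adjusted p was 0.0740 without CYR61 replicate 2 and 0.0560 without CYR61 replicate 3. 1700056N10Rik had 1.11, 1.23, 0.998 and 0.983 CPM in CYR61, against 1.44 to 2.43 CPM in control with a median of 1.69, a log2 fold change of -0.79 (SE 0.21, edgeR adjusted p = 0.0252). Neither pair of groups overlapped. For 1700056N10Rik the adjusted p was 0.0518 to 0.0777 in turn without CYR61 replicate 3, CYR61 replicate 4, control replicate 2 or control replicate 3.

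Gm42031, Gm4316 and Gm48275 were called by a narrow margin. Gm42031 had 13.1, 11.1, 14.3 and 11.5 CPM in CYR61, against 13.3 to 17.4 CPM in control with a median of 15.1, and its groups overlapped (log2 fold change -0.30, SE 0.08, edgeR adjusted p = 0.0380). Gm4316 had 11.1, 11.3, 11.2 and 11.6 CPM in CYR61, against 12.0 to 14.2 CPM in control with a median of 12.9, without overlap (log2 fold change -0.21, SE 0.06, edgeR adjusted p = 0.0401). In GENCODE M21, Gm4316 overlaps the span of a coding gene. Gm48275 had 0.388, 0.296, 0.411 and 0.437 CPM in CYR61, against 0.514 to 1.31 CPM in control with a median of 0.785, without overlap (log2 fold change -1.03, SE 0.31, edgeR adjusted p = 0.0492). All 3 share near-identical sequence with other genes and had fractional counts in at least 8 of the libraries. Gm42031 and Gm48275 share sequence with the same processed transcript, Gm43305, over 748 and 287 bases. Gm42031 also shares 337 and 220 bases with the coding genes Chd9 and Cnbd2, and 262 bases with Gm26880, which was not tested. Chd9 and Cnbd2 were not called (log2 fold change 0.028 and 0.061, edgeR adjusted p = 0.66 and 0.737). Gm43305 was more abundant, at 29.8 ± 1.85 CPM in CYR61 (SD, n = 4) and 33.9 ± 1.76 CPM in control (SD, n = 7), and was itself called lower (log2 fold change -0.19, edgeR adjusted p = 0.0259). The sum of Gm42031, Gm48275, Gm43305 and Gm42428, a lincRNA that shares all 287 bases of Gm48275, was 39.7 to 46.9 CPM in CYR61 and 46.1 to 55.4 CPM in control, with overlap. Without Gm42031 the sum was 28.2 to 32.6 CPM in CYR61 and 32.8 to 38.0 CPM in control, without overlap, and most of it was Gm43305. Gm4316 shares 788 bases at 99.4% identity with the coding gene Miga1 (log2 fold change -0.27, edgeR adjusted p = 0.0515), and their sum was 20.5 to 22.6 CPM in CYR61 and 23.3 to 28.6 CPM in control, without overlap. With the edgeR test, Gm42031 missed the threshold when any of CYR61 replicates 2 and 4 or control replicates 1, 2, 3 and 5 was left out (adjusted p 0.0581 to 0.165). Gm4316 missed it without any single CYR61 replicate or without control replicate 1, 2, 4, 5 or 6 (0.0589 to 0.110), and Gm48275 without any single CYR61 replicate or without control replicate 2, 3, 4 or 5 (0.0737 to 0.168).

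**Figure D3:**
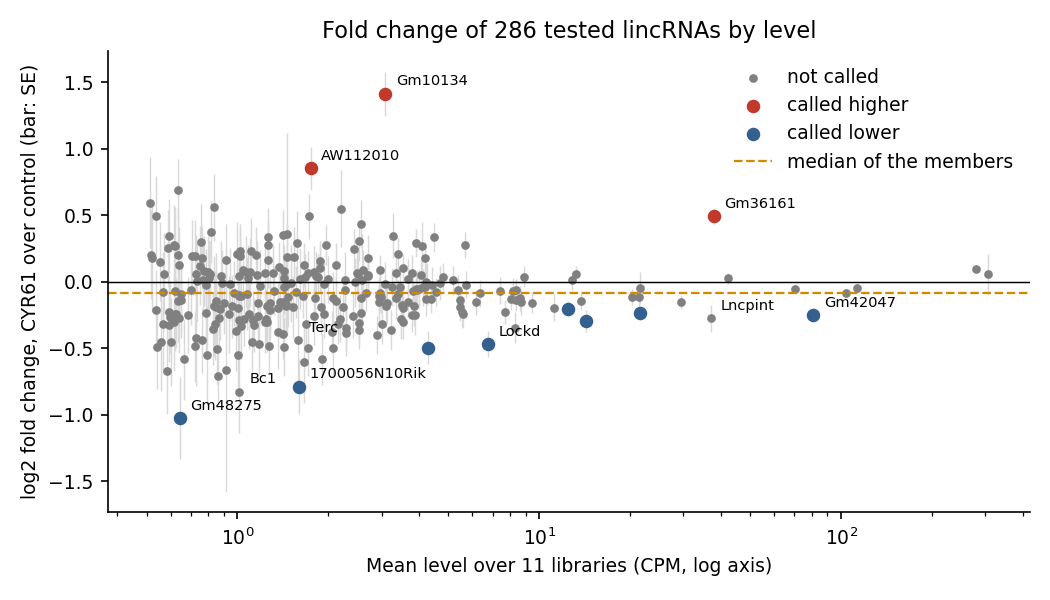
Log2 fold change of CYR61 over control for the 286 tested lincRNAs, with its SE as a bar, against the mean level over the 11 libraries (CPM, log axis). The standard errors widen toward low levels, and the dashed line marks the members' median of -0.087.

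Across all 286 tested members, 183 (64%) had a fold change below 0, against 52.5% of all genes tested, and the median log2 fold change was -0.087, against -0.0076 over all genes. The lean was small beside the errors of single members, and these shares carry no test. Other noncoding classes leaned the same way: the median was -0.15 over 919 records marked TEC, loci whose transcript is not yet established, -0.12 over 110 sense intronic records, -0.11 over 236 processed transcripts and -0.090 over 634 antisense records. Protein-coding genes had a median of 0.0012. In the ranges from 0.5, 1.5 and 5 CPM given above, the members' medians were -0.11, -0.053 and -0.12. Those of coding genes in these ranges were -0.012, -0.039 and 0.0040. Scaling libraries by their totals without TMM factors moved the median of all genes to -0.052 and that of the members to -0.13.

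Library by library, the members' median deviation from the control mean on the log2 scale was -0.071, -0.075, -0.070 and -0.032 in CYR61 replicates 1 to 4. In control it ran from -0.044 in replicate 7 to 0.096 in replicate 1, with a median of 0.0081. The groups overlapped, since control replicate 7 lay below CYR61 replicate 4. Control replicate 1 also had the highest median of TEC records, at 0.20, and the highest level of the nuclear lincRNA Malat1, at 22725 CPM. The other controls had 16107 to 19564 CPM of Malat1, and the CYR61 libraries had 17502 to 18767 CPM. The part of RNA composition in the lean was not tested.

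**Figure D4:**
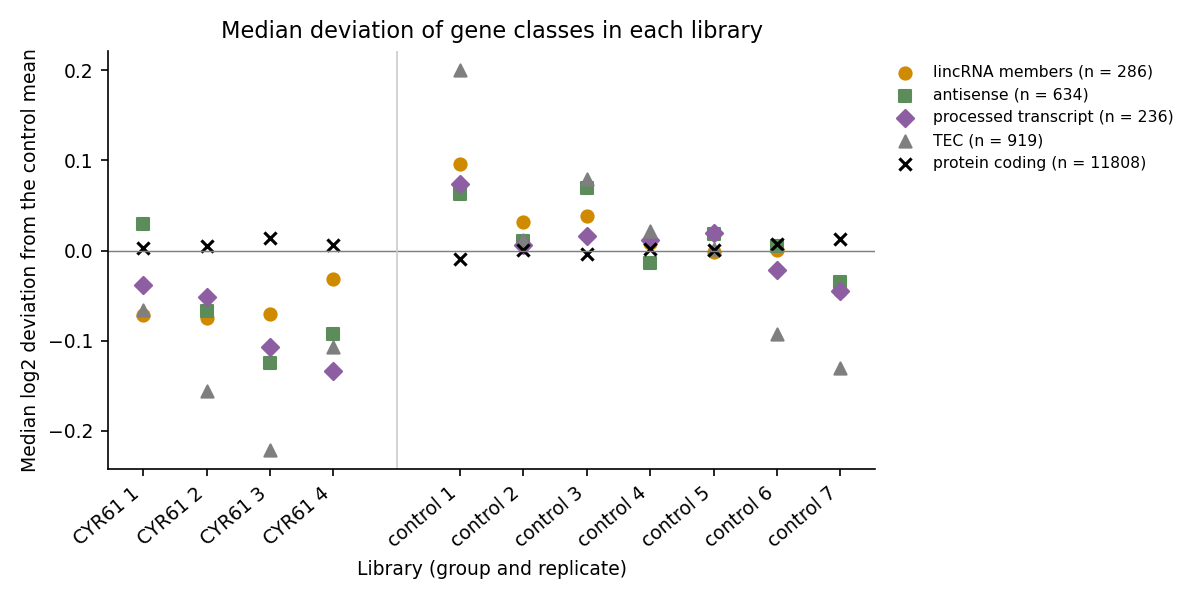
Median log2 deviation from the control mean of 5 gene classes in each CYR61 and control library. The lincRNA, TEC, antisense and processed transcript medians lie above 0 in control replicate 1 and mostly below 0 in CYR61, while protein-coding genes stay close to 0.

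A list of 69 symbols was meant for long noncoding RNAs with a described role or carrying microRNAs. Of these symbols, 33 had a lincRNA record in the table and 19 were members, and Lockd was the only member of the list called. That list is neither complete nor limited to such RNAs, and it leaves out AW112010, which was called higher. Norad (2900097C17Rik) had 282, 306, 292 and 288 CPM in CYR61, against 263 to 280 CPM in control with a median of 274. All 4 CYR61 libraries lay above all controls, by little: the log2 fold change was 0.094 (SE 0.03), with an edgeR adjusted p of 0.0701. DESeq2 (adjusted p = 0.0197), limma-voom (0.0470) and the edgeR fit without CYR61 replicate 1 (0.0313) did call it. Cyrano (Oip5os1) had 96.9, 100.5, 101.2 and 101.4 CPM in CYR61, against 101.2 to 112.2 CPM in control with a median of 105, a log2 fold change of -0.087 (SE 0.03, edgeR adjusted p = 0.110). Without TMM factors its edgeR adjusted p was 0.0178. Of its CYR61 libraries, replicates 1 to 3 lay below every control and replicate 4 within the control range.

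Lncpint, a p53-responsive RNA known to bind Polycomb proteins, had 38.0, 31.6, 29.4 and 30.6 CPM in CYR61, against 30.5 to 50.2 CPM in control with a median of 38.4. The control libraries alone varied by 15.6%, where counting error gives 3.71%, and the groups overlapped widely (log2 fold change -0.28, SE 0.10, edgeR adjusted p = 0.112). With edgeR it was called without CYR61 replicate 1 (adjusted p = 0.0451), without control replicate 7 (0.0213) and without a filter on low counts (0.0309). Dubr, described in mouse muscle cell differentiation, averaged 27.4 ± 0.884 CPM in CYR61 (SD, n = 4) and 30.5 ± 2.05 CPM in control (SD, n = 7), with an edgeR adjusted p of 0.0944 that became 0.0265 without control replicate 7 and 0.0281 without TMM factors. The X inactivation genes Ftx and Jpx had 6.10 to 7.65 and 2.99 to 3.66 CPM in CYR61, against 7.13 to 9.19 and 3.17 to 3.81 CPM in control, and neither was called (edgeR adjusted p = 0.158 and 0.715). Xist itself had at most 1 count in any library.

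Trp53cor1, the p53-induced lincRNA-p21, averaged 4.65 ± 0.672 CPM in CYR61 (SD, n = 4) and 4.68 ± 0.709 CPM in control (SD, n = 7). Among the hosts of microRNAs, Mir142hg, the host of a microRNA abundant in blood cells, had 3.47 ± 0.262 CPM in CYR61 and 3.31 ± 0.392 CPM in control, and Mir17hg, the host of a growth-promoting cluster, had 1.76 ± 0.239 CPM in CYR61 and 1.60 ± 0.244 CPM in control (SD, n = 4 and 7). Morrbid, a lincRNA that controls the lifespan of mouse myeloid cells, averaged 1.33 ± 0.214 CPM in CYR61 and 1.51 ± 0.374 CPM in control (SD, n = 4 and 7). Pvt1, which neighbours Myc, averaged 1.56 ± 0.153 CPM in CYR61 and 1.69 ± 0.244 CPM in control (SD, n = 4 and 7). None of these 5 was called, with edgeR adjusted p of 0.684 to 0.980. Epb41l4aos, Bvht, AI427809 and AC160336.1 were not called either, with log2 fold changes of -0.055, -0.025, 0.060 and 0.25. The 3 members nearest the minimum, 4930517E14Rik, Gm34643 and Gm45897, had fold changes of 0.18, 0.20 and 0.60 on the log2 scale with standard errors of 0.33 to 0.40.

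Bc1, a short cytoplasmic RNA best known as a translational repressor in neurons, had 1.05, 0.395, 0.998 and 0.273 CPM in CYR61, against 0.888 to 1.64 CPM in control with a median of 1.23. Its log2 fold change of -0.83 (SE 0.31) was not called (edgeR adjusted p = 0.126). CYR61 replicates 2 and 4 lay below every control, and replicates 1 and 3 lay within the control range. Several described lincRNAs of inflammation and imprinting were near the limit of detection. Ptgs2os2 had at most 1 count in a library, Mir155hg at most 4, H19 and Meg3 at most 2, and Hotair none, where 3 counts, the upper limit that a count of 0 allows, correspond to 0.140 to 0.197 CPM. That limit covers counting error only.

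The deposited table of the authors' own comparison lists 236 of the members. In that table, 17 of them had an adjusted p under 0.05 (7 higher and 10 lower), against 12.3% of all 13999 genes listed there (7.85% higher and 4.44% lower). In the authors' deposited table, 9 of the 11 members called by edgeR were also past 0.05. Gm4316 was at 0.0532 in the authors' deposited table, and Gm48275 was not among the listed members. Another 8 members, 4 higher and 4 lower, passed 0.05 in the authors' deposited table and did not pass here, among them 2900097C17Rik (0.00946), Lncpint (0.0165), Dubr (0.0170) and Bc1 (0.0225).

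The levels of some members depended on how reads were split between records. Terc, the RNA template of telomerase, stands on 2 records of the table, one marked lincRNA and one marked misc_RNA. The lincRNA record had 34, 32, 29 and 0 counts in CYR61, while the other had 0, 0, 0 and 34, so the whole of CYR61 replicate 4 stood on the second record. Their sum was 34, 32, 29 and 34 counts in CYR61 and 30 to 39 counts in control, or 1.76 ± 0.143 CPM in CYR61 (SD, n = 4) and 1.93 ± 0.206 CPM in control (SD, n = 7). The log2 fold change was -0.44 for the lincRNA record (edgeR adjusted p = 0.589) and -0.14 for the sum (0.683). Rmrp also stands on 2 records, and the lincRNA record held only 12.5 to 22.3% of the counts in each library. The sum of both Rmrp records was 1972 ± 257 CPM in CYR61 (SD, n = 4) and 1909 ± 193 CPM in control (SD, n = 7), and the lincRNA record was not called (log2 fold change 0.057, SE 0.15, edgeR adjusted p = 0.887).

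**Figure D5:**
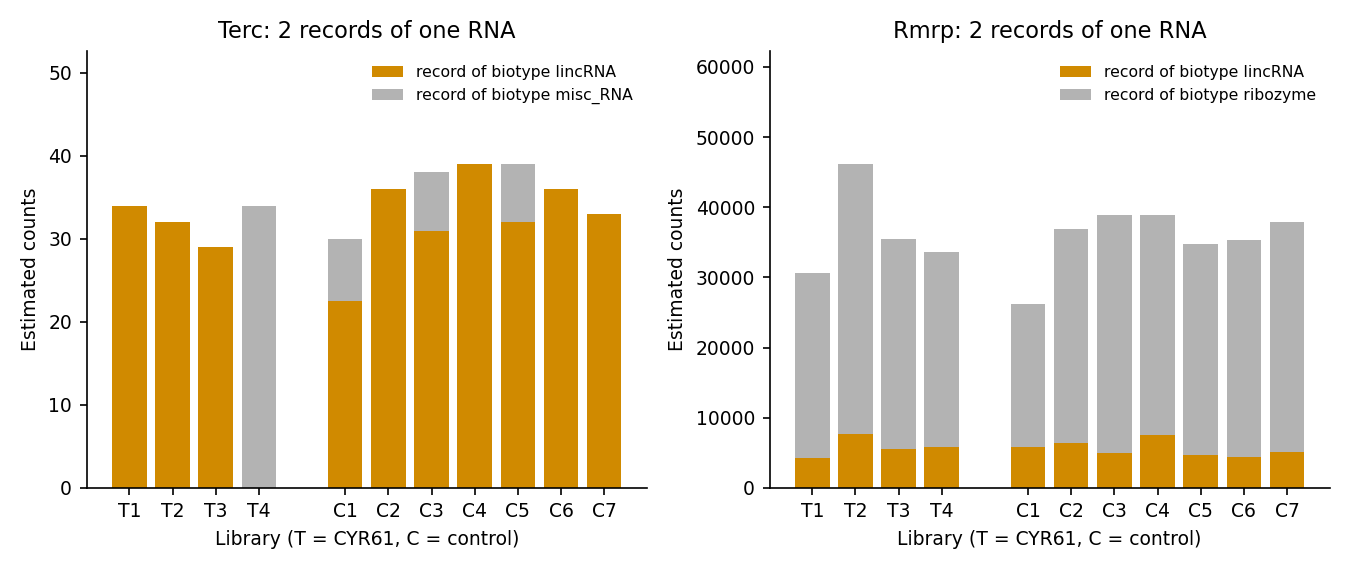
Estimated counts of Terc and Rmrp in each library, with the part on the lincRNA record and the part on the other record stacked (T, CYR61; C, control). The Terc counts of CYR61 replicate 4 stood on the other record, and the lincRNA record held a minority of Rmrp counts in all 11 libraries.

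C030014I23Rik and Gm47204, a pair chosen after their values were seen, share 1806 bases at 100% identity and showed the same behaviour. C030014I23Rik had 47, 1, 29 and 43 counts in CYR61 and Gm47204 had 0, 34, 17 and 0, so one of them was at or near 0 in replicates 1, 2 and 4 and both had counts in replicate 3. In control, C030014I23Rik ran from 0 to 51 counts and Gm47204 from 0 to 49. Their sum was 35 to 47 counts in CYR61 and 37 to 51 in control, with 2.34 ± 0.439 CPM in CYR61 (SD, n = 4) and 2.39 ± 0.444 CPM in control (SD, n = 7). Terc, C030014I23Rik and Gm47204 were the 3 members at 0 in one library and at 20 counts or more in another of the same group. Over the whole set, 66 members had fractional counts in at least 6 libraries, and 65 of these share at least 100 bases at 98% identity or more with another gene, against 45 of the other 220 with a GENCODE M21 transcript. Among the fractional members 6 of 66 were called (9.09%), and among the others 5 of 220 (2.27%), against 7.96% of all genes tested. Gm47283 and Erdr1, a pair on chromosomes Y and X, share 529 bases at 100% identity, and neither was called (edgeR adjusted p = 0.449 and 0.880).

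The coding genes next to the called lincRNAs were compared in the same fit, with neighbours from GENCODE M21. Both nearest tested coding genes of Gm10134 lay within 10 kb on the same strand and were higher with CYR61. Ralgds, which encodes an activator of Ral GTPases, averaged 41.1 ± 3.83 CPM in CYR61 (SD, n = 4) and 30.3 ± 0.756 CPM in control (SD, n = 7), a log2 fold change of 0.44 (edgeR adjusted p = 1.87e-05). Gbgt1, a glycosyltransferase gene, averaged 3.74 ± 0.905 CPM in CYR61 (SD, n = 4) and 1.98 ± 0.301 CPM in control (SD, n = 7), a log2 fold change of 0.91 (edgeR adjusted p = 0.00129). Gm10134, Gbgt1 and Ralgds all had their 2 highest values in CYR61 replicates 2 and 3.

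Gm36079, a coding gene within 10 kb of Gm36161 on the opposite strand, had a log2 fold change of 0.52 (edgeR adjusted p = 0.00530), while Zfp131 on the other side had 0.049 (0.724). Ccdc86, more than 10 kb from AW112010, had a log2 fold change of 0.40 (edgeR adjusted p = 0.000901), and Ms4a14 on its other side -0.0024 (0.988). Cdkn1b, the neighbour of Lockd, averaged 57.8 ± 2.11 CPM in CYR61 (SD, n = 4) and 63.0 ± 2.35 CPM in control (SD, n = 7), a log2 fold change of -0.12 with an edgeR adjusted p of 0.0466. With the edgeR test this call was lost, at adjusted p of 0.0622 to 0.193, when any single library other than CYR61 replicate 3 or control replicate 7 was left out. Kmt2e, the neighbour of 5031425E22Rik, had a log2 fold change of -0.14 and just missed the threshold (edgeR adjusted p = 0.0527). No coding neighbour of Gm42047, Gm2310, Gm42031, Gm4316 or Gm48275 was called.

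In all, 4 of the 11 called members had a called nearest coding gene, each changed in the same direction as the lincRNA. Of the members not called, 30 of 274 (10.9%) had a called nearest coding gene, and 9.56% of all coding genes tested were called. Across 285 members, the log2 fold change of the lincRNA and of its nearest tested coding gene had a Pearson r of 0.31, which was 0.41 for the 163 pairs within 10 kb and 0.24 for the 122 farther apart. These are correlations across genes, which are not independent replicates and share the same 11 libraries. Reads that run past a gene's end, or that fall where genes overlap, can count for both members of a pair, and 50 of the 286 members overlap the span of a coding gene. Their part in the correlation was not tested.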

How the data were processed

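Macrophage RNA in 4 CYR61 and 7 control libraries was depleted of ribosomal RNA and sequenced as paired reads, per the labels' protocols. DRAGEN is named in the submitters' processing notes. Its version, the genome build, the annotation and the use of strand are not given in the sources consulted. The authors deposited expected counts (estimated counts) per Ensembl gene, not normalized, with 1 column per library. They also deposited a table of their own comparison with log2 fold changes, adjusted p-values, log2 CPM per library and scores, of which only the fold changes and adjusted p-values of members were used here. How the authors made that table is not recorded in the labels or headers. No per-sample column lacked a sample. The count table has 55774 rows and 55487 gene IDs, and repeated rows were dropped. A recount of the members with totals over all rows gave 287 again.

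The estimated counts, rounded to integers, went into edgeR 4.0.16 under R 4.3.3 (filterByExpr, TMM factors, glmQLFit and glmQLFTest, CYR61 against control over 11 libraries, no covariates). Two-sided p-values from 15135 genes received the Benjamini-Hochberg adjustment, with a threshold of 0.05. The rule for the members, the list of described RNAs and the motifs were chosen with earlier results of these data known, although the rule itself uses only the mean level, and no list was tested. Genes named are all called members, the 10 of highest level, the members of the described list, 3 on each side of the minimum and the coding neighbours of called members. Neighbours and exon lengths came from GENCODE M21 by Ensembl ID, and shared sequence from blastn 2.17.0 on its transcripts. Start windows (250 bases before to 50 after) came from RefSeq, GRCm38.p6. The test was tried on simulated counts with 200 changed genes. Alternatives were DESeq2 1.42.0, limma-voom (limma 3.58.1), RLE factors, no TMM, other filters, library totals without mitochondrial and ribosomal RNA, a replicate block, other minimum levels, no members with fractional counts, and leaving out each library. Added after seeing the data were an unblocked fit of the block's 8 libraries, a fit without control replicate 1 and CYR61 replicate 4, and a fit with split records added together.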

Additional observations from a re-analysis of the deposited data

Results flagged for a closer look

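Of 70 groups of values of named members looked at, 3 held a library far from the rest of its group, where chance gives about 1 in 20 groups. Gm42047 stood at 65.3 CPM in CYR61 replicate 2, while the other CYR61 libraries lay between 73.6 and 75.1 CPM. The Gm42047 call did not rest on that library, since it was kept without it. The lincRNA record of Terc was at 0 CPM in CYR61 replicate 4, against 1.58 to 1.89 CPM in the other CYR61 libraries, and the 34 Terc counts of that library stood on the second Terc record. 4930517E14Rik stood at 0.277 CPM in CYR61 replicate 1, against 0.646 to 0.690 CPM in the other CYR61 libraries, and it was not called.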

How the results depend on the processing

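The counts of called members moved more than their direction did. Leaving out 1 library at a time gave 6 to 15 called members, 3 to 5 higher, 3 to 12 lower, and a median log2 fold change of -0.099 to -0.073. Calls over all genes moved as well, between 5.14 and 9.14%. The lowest total came without CYR61 replicate 2 (6 members, 3 lower, with 5.14% of all genes called). Without CYR61 replicate 4, 7 members were called, 4 of them lower, with 6.38% of all genes called. The same numbers came without control replicate 2, with 6.74% of all genes called. The members lower numbered 5 without CYR61 replicate 3, control replicate 3 or control replicate 5, with 5.8, 6.53 and 6.7% of all genes called. Without control replicate 7, 15 members were called, 12 of them lower, with 9.14% of all genes called. Without CYR61 replicate 1 there were 5 higher, with 8.3% of all genes called in either direction. Scaling by library totals without TMM factors gave 13 lower and a median of -0.13, with 9.69% of all genes called. With control replicate 1 and CYR61 replicate 4 both left out, 6 members were called, 3 of them lower, with 6.06% of all genes called. Among the 220 members whose counts were whole in most libraries, 5 were called (2.27%, against 7.96% of all genes), 3 of them lower. The cause was not tested, beyond the smaller number of libraries or members. DESeq2 called 10 members (with 8.54% of all genes called), limma-voom 11 (7.7%) and RLE factors 11 (7.91%). No named member's call changed direction.

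No sign that the replicate number pairs the libraries was seen. The deviations of libraries with the same number correlated at r of -0.034 to 0.034, and 1 of 4 CYR61 libraries correlated best with the control of its own number. Libraries of unlike number correlated at r of -0.083 to 0.13. Such values cannot exclude a shared animal or culture, on which the labels are silent. With the replicate number as a block on the 8 libraries numbered 1 to 4, 16 members were called, against 14 in the same libraries without it. Over all genes the share called did not rise, at 8.53% with the block and 8.57% without it. Lncpint (edgeR adjusted p = 0.000599 with the block and 0.00744 without) and Dubr (0.0186 and 0.00791) were called in both.

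Precision was lowest at low levels: the median SE of the log2 fold change was 0.26 for the members from 0.5 to under 1.5 CPM and 0.090 for those at 5 CPM or more.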
